A study of Mus musculus with 10 samples.

Results

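The collagen chains and the proteins that modify, fold, trim and cross-link them were followed in AtT20 cells with and without knockdown of *Creb3l1*. Members were taken by name alone: every gene whose symbol is Col, a number, a and a number, plus the prolyl 4-hydroxylase subunits *P4ha1*, *P4ha2* and *P4ha3*, the lysyl hydroxylases *Plod1*, *Plod2* and *Plod3*, the collagen chaperone *Serpinh1*, the prolyl 3-hydroxylases *P3h1*, *P3h2* and *P3h3* with their partner *Crtap*, the lysyl oxidases *Lox*, *Loxl1*, *Loxl2*, *Loxl3* and *Loxl4*, and the propeptide-trimming pair *Bmp1* and *Pcolce*. This gave 62 of the 53801 genes in the count table, 44 chains and 18 enzymes and helpers, called processing enzymes below. AtT20/D16v-F2 is a mouse corticotroph line from a pituitary tumour, grown in medium with heat-inactivated serum. RNA was sequenced from 5 libraries of a line carrying a non-targeting shRNA (controls) and 5 libraries of a line carrying a *Creb3l1* shRNA (knockdown). Both lines had been made by stable lentiviral transduction. The comparison asks which genes change when the factor is lowered. Each group is 1 stable line with 1 hairpin, so line, hairpin and loss of *Creb3l1* cannot be told apart, and p-values measure only the spread between libraries. The study describes its replicates as biological, and the labels do not tie the libraries to separate cultures.

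Collagens are made of 3 alpha chains wound into a triple helix. The chains enter the endoplasmic reticulum, where hydroxylases modify their prolines and lysines and chaperones hold the helix together. After export the propeptides are cut off and lysyl oxidases cross-link the fibres. Creb3l1 is a transcription factor anchored in the endoplasmic reticulum membrane, released by cleavage, and is known to drive collagen genes such as *Col1a1* in bone and other connective tissue. Corticotrophs are secretory cells whose main product is pro-opiomelanocortin, not matrix.

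Library totals ran from 17420698 to 22205107 counts and 14336 genes passed the filter on low counts and were tested. *Creb3l1* itself was at 3805, 3864, 3695, 3551 and 3531 normalised counts in the controls and at 1093, 1133, 1014, 1159 and 1051 in the knockdown libraries, a log2 fold change of -1.76 ± 0.036 (SE, adjusted p = 2.05e-33), so every library went with its label. Normalised counts are counts scaled to a common library size, fold changes are knockdown over control throughout, and a gene is called when the adjusted p of edgeR's quasi-likelihood test over all tested genes is under 0.01. Of 10 corticotroph markers, 9 had counts and 8 were called, and their summed level was 245507 to 260475 normalised counts in the controls and 225511 to 233568 in the knockdown line. The sum joins markers that moved in opposite directions. *Pomc*, at 107334 to 146469 raw counts in the controls and 86031 to 101853 in the knockdown line, was lower. So were *Pcsk1*, *Tbx19* and *Nr3c1* once scaled to library size. *Chga*, *Pitx1*, *Neurod1* and *Scg2* were higher, with *Scg2* at 3177 to 4520 raw counts and 6806 to 8222. The 5 markers of other hormone cells had at most 2 counts in any library. Of 5 endothelial markers *Cdh5*, *Kdr* and *Emcn* were at 0, and the sum, from *Pecam1*, which was called, and *Tek*, was 16.95 to 25.7 in the controls and 7.49 to 11.0 in the knockdown line. Of 3 folliculostellate markers *S100b* and *Aldh1a1* had at most 2 counts, and *Sox2*, which was called, brought the sum to 114 to 178 in the controls and 153 to 199 in the knockdown line. The part of such cells in the collagen values was not tested. Control replicate 3 gave 4.13% of its counts to the gene *Gm42418*, against 0.106% to 0.191% elsewhere. All values are from whole cultures, in which fewer cells of a kind and less RNA per cell cannot be told apart.

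Collagen RNA in these cells was mostly that of a few chains outside the classic fibril types, and most of those that moved were lower in the knockdown line. *Col18a1*, *Col13a1*, *Col9a3*, *Col28a1*, *Col20a1*, *Col17a1*, *Col4a4*, *Col22a1* and *Col11a2* fell and *Col8a1* rose. Among the processing enzymes *P4ha1*, *Pcolce*, *P3h3*, *Plod1* and *Plod3* fell by small amounts and *Bmp1* rose. The type I chains, of which *Col1a1* is the gene best known as a target of the factor in bone, were not called in the main edgeR fit. Their log2 fold changes were 0.38 and 0.41, and *Col1a1* was called higher with DESeq2 (DESeq2 adjusted p = 0.00633). Of the 62 members 35 were tested and 16 were called (45.7%, against a background of 40.7% of all tested genes). Of these, 14 were lower (40.0%, background 20.1%) and 2 were higher (5.71%, background 20.6%), and 7 were called with a change of at least 1.5-fold (20%, background 7.73%). In 13 members the 5 control and the 5 knockdown libraries did not overlap (37.1%, background 36.0%). The median log2 fold change of the tested members was -0.14, and that of all tested genes was -0.0024. The size of the log2 fold change over all called genes had a median of 0.28, and the share of members called was near the background, so the counts describe the members and are no test of the group. Without control replicate 1 and knockdown replicates 3 and 4, which stand apart in several members (see the type I chains), 13 members were called, 12 of the 16 plus *Col1a1*.

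**Figure D1:**
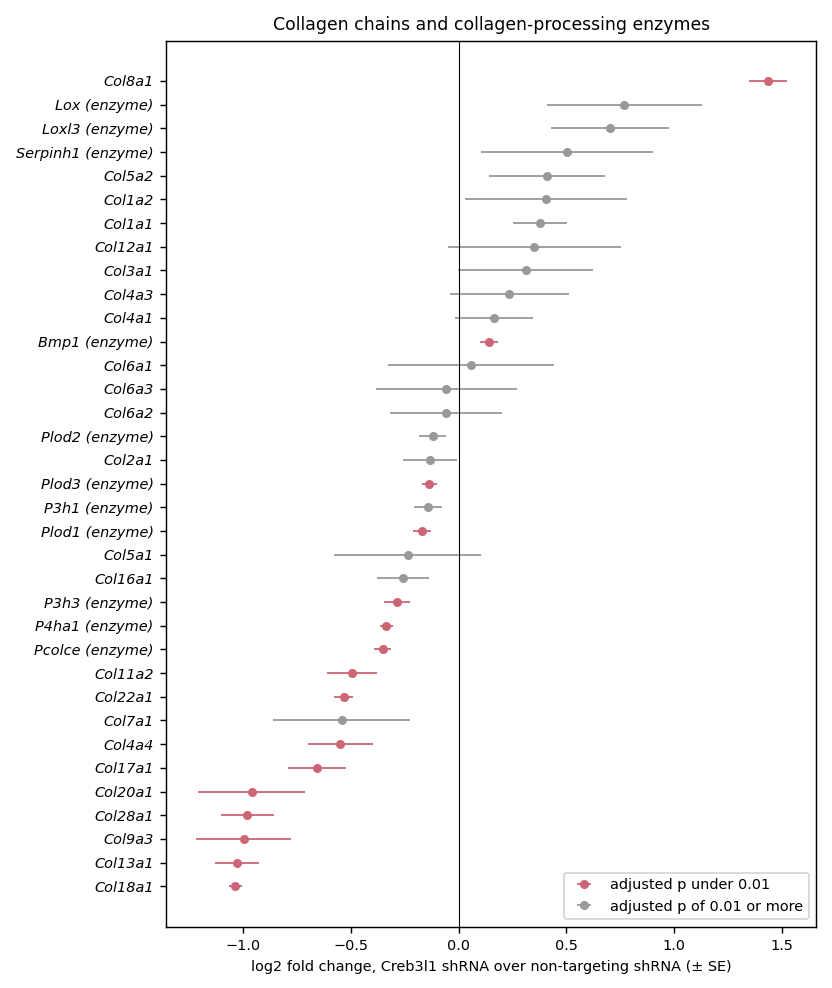
Log2 fold change of each of the 35 tested members, *Creb3l1* shRNA over non-targeting shRNA, with its standard error (horizontal bars, 5 libraries per line), ordered by size and coloured by whether the adjusted p was under 0.01. *Col8a1* lies at 1.43 on the right, the 5 chains from *Col18a1* to *Col20a1* lie near -1 on the left, and the called enzymes lie between -0.35 and 0.14.

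The other 27 members were not tested. No read was counted in any library for *Col9a1*, *Col19a1*, *Col25a1*, *Col10a1*, *Col6a5*, *Col6a4*, *P3h2* and *Loxl4*, which at these depths allows up to 3 counts. The largest count among the rest was 16, for *Col15a1*, the close relative of *Col18a1*, which had 6 to 16 counts in the controls and 3 to 9 in the knockdown libraries. The precision followed the level. The median SE of the log2 fold change was 0.297 over the 14 tested members with a mean under 50 normalised counts, of which 2 were called. It was 0.121 over the next 13 members by level, of which 7 were called, and 0.0392 over the 8 most abundant, of which 7 were called.

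Levels can be set side by side only per length of exon. On that scale *P4ha1* was highest of the members, at 1884 normalised counts per kilobase in the controls and 1492 in the knockdown line. *Col18a1* was at 618 and 301. *Pcolce* was at 347 and 271 and *Plod3* at 338 and 307, so *Col18a1* was second in the controls. In the knockdown line *Plod3* (307 ± 14.0, SD, n = 5) and *Col18a1* (301 ± 7.11) were too close to rank. *Col1a1* and *Col22a1* were the next chains, at 109.2 and 101.4 in the controls. All other chains lay under 45 in both lines.

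**Figure D2:**
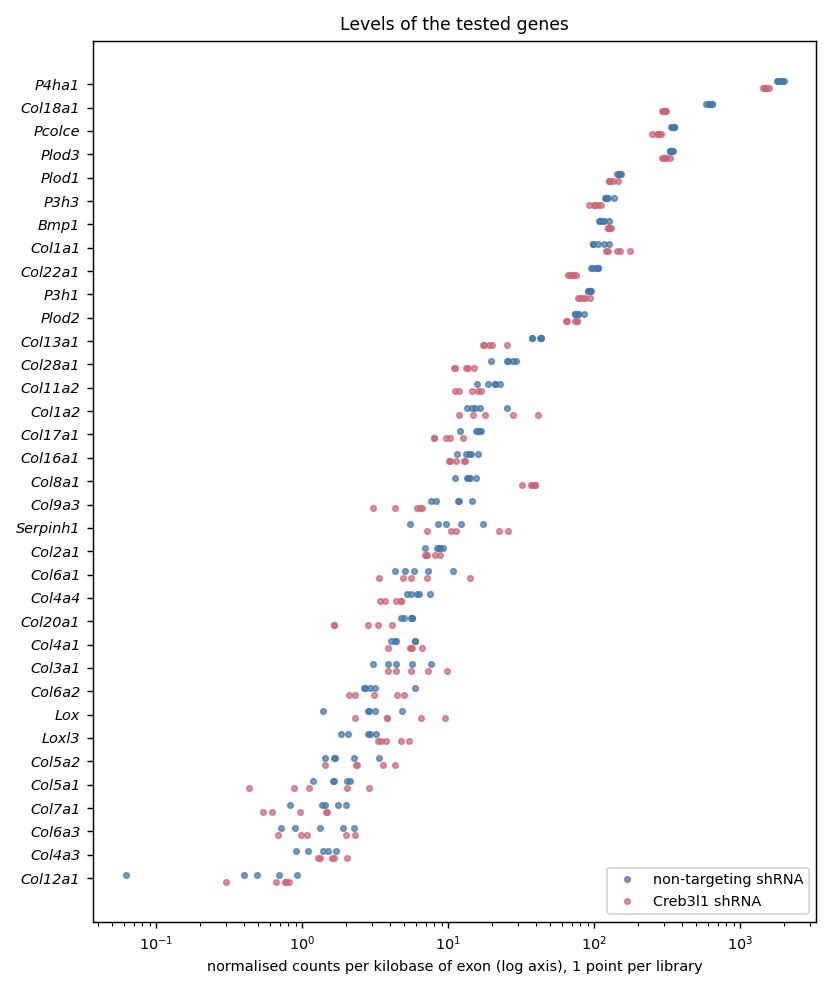
Level of the 35 tested members in normalised counts per kilobase of exon on a log axis, 1 point per library (blue, non-targeting shRNA; red, *Creb3l1* shRNA), ordered by level. *P4ha1* (1884 in the controls) and *Col18a1* (618 in the controls) stand at the top, and the points of the lines separate fully for *Col18a1* and *Col8a1*.

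*Col18a1* encodes the alpha chain of type XVIII collagen, a heparan sulphate carrying collagen of basement membranes whose C-terminal end can be released as endostatin. Its gene lies at chr10:77052178-77166548 on the minus strand (GRCm38). The controls held 4524, 4309.7, 4074, 4289 and 4489 normalised counts and the knockdown libraries 2065, 2169, 2148, 2135 and 2059. Every knockdown library was far below every control and the spread within each line was small. The log2 fold change was -1.04 ± 0.030 (SE, adjusted p = 1.75e-28), which is 2.05-fold lower. Leaving out any 1 library kept the value between -1.06 and -1.02.

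Most of the net difference in the family's total lay in this gene. The summed normalised counts of all chains were 7415 ± 343 (SD, n = 5) in the controls and 5082 ± 472 in the knockdown line, and without *Col18a1* they were 3078 ± 183 and 2967 ± 438. The latter sums join chains that moved in opposite directions. *Col22a1* went from a mean of 934 to 646 and *Col13a1* from 187 to 91.4. *Col1a1*, not called, went from 717 to 935 and *Col8a1* from 106.2 to 289. *Col18a1* gave 58.5% ± 0.879 of the summed chain counts in the controls and 41.9% ± 3.10 in the knockdown line. The share of *Col1a1* went from 9.65% ± 0.712 to 18.3% ± 1.21 and that of *Col8a1* from 1.43% ± 0.157 to 5.71% ± 0.547. Shares add up to the whole, so a lower share of *Col18a1* raises the others by construction.

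RefSeq places starts of *Col18a1* at 2 points (GRCm38.p6), and counts per gene do not tell their transcripts apart. The 200 bases before each start are shown because this is the chain with the largest change in counts. Both are written in the direction of the gene, on the minus strand, from chr10:77166531-77166730 for the first and chr10:77113706-77113905 for the second.
Col18a1, first start: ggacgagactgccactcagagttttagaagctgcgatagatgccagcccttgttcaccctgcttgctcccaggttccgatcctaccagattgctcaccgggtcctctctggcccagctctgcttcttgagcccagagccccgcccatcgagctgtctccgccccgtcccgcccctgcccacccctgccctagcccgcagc
Col18a1, second start: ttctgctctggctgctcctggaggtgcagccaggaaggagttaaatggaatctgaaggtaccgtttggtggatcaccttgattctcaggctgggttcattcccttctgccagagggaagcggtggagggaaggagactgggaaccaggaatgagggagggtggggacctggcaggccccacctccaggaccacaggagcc

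*Col8a1* was the 1 chain called higher in the main edgeR fit. It encodes a short chain of type VIII collagen, which forms hexagonal networks under endothelial and corneal cells. The controls held 111, 105.97, 86.8, 121 and 106.5 normalised counts and the knockdown libraries 308, 292, 306, 289.9 and 249.9. The lowest knockdown library was well above the highest control. The log2 fold change was 1.43 ± 0.089 (SE, adjusted p = 2.89e-17), which is 2.70-fold higher, and the value stayed between 1.37 and 1.49 when any 1 library was left out. Its partner chain *Col8a2* had 0 to 3 counts in every library. The 200 bases before its start, on the minus strand at chr16:57754738-57754937, are set beside those of *Col13a1*, a chain that fell, at chr10:61979109-61979308 on the minus strand.
Col8a1: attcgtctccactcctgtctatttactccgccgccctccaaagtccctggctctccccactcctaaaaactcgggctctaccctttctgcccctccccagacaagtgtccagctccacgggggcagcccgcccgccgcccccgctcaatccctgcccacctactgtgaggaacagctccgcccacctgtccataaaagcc
Col13a1: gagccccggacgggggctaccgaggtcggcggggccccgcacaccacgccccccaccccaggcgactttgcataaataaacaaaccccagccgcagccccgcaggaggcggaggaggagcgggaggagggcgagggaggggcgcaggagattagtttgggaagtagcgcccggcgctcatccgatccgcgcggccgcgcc

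*Col13a1* and *Col17a1* encode collagens that span the cell membrane, and both fell. *Col13a1* held 172, 172, 199, 195 and 199 normalised counts in the controls and 91.9, 80.3, 80.8, 117 and 87.2 in the knockdown libraries, with no overlap and a log2 fold change of -1.03 ± 0.10 (SE, adjusted p = 2.28e-11). *Col17a1*, a chain of the hemidesmosomes that anchor epithelial cells, held 92.5, 72.1, 100.2, 95.8 and 98.1 against 47.8, 57.8, 61.7, 75.8 and 48.2. Control replicate 2 lay below knockdown replicate 4, so the lines overlapped, and the log2 fold change was -0.66 ± 0.14 (SE, adjusted p = 8.78e-05). The third membrane chain with counts, *Col23a1*, had 0 to 4 counts and was not tested.

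Of the chains that sit on the surface of fibrils, known as FACIT collagens, *Col22a1*, *Col9a3* and *Col20a1* fell, and *Col16a1* and *Col12a1* were tested and not called. *Col22a1*, found at the junctions of muscle and tendon in animals, was the most abundant and held 940.4, 896, 872, 981 and 978 normalised counts in the controls and 626, 657, 689, 655 and 605 in the knockdown libraries. The lines did not overlap, and the log2 fold change was -0.53 ± 0.045 (SE, adjusted p = 2.61e-13). *Col9a3*, a chain of the cartilage collagen type IX, held 45.3, 45.6, 56.2, 31.9 and 29.2 against 16.5, 11.8, 25.5, 23.7 and 24.5, a log2 fold change of -1.0 ± 0.22 (SE, adjusted p = 2.21e-04). Its gap between the lines was narrow, and its partners *Col9a1* and *Col9a2* had at most 3 counts. *Col20a1* held 29.2, 28.6, 25.7, 24.4 and 29.2 against 21.1, 17.1, 8.51, 8.53 and 14.5, a log2 fold change of -0.96 ± 0.25 (SE, adjusted p = 0.00126). The lines did not overlap, but knockdown replicates 3 and 4 were the lowest, and without them and control replicate 1 the log2 fold change was -0.61 (adjusted p = 0.077) and the call was lost. Another annotated gene, with at most 195 counts, shares 79 bases (1.54%) of the exons of *Col20a1* on the same strand. *Col16a1* at -0.26 (adjusted p = 0.0707) and *Col12a1* at 0.35 (adjusted p = 0.493) were not called.

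*Col28a1*, which encodes a beaded-filament collagen found near peripheral nerve, held 126, 137, 142, 96.7 and 124 normalised counts in the controls and 67.1, 53.5, 64.9, 73.9 and 54.5 in the knockdown libraries. Every control was above every knockdown library. The log2 fold change was -0.98 ± 0.12 (SE, adjusted p = 8.12e-09). *Col7a1*, the chain of the anchoring fibrils of skin, was at -0.54 with a mean under 16 normalised counts in either line and was not called (adjusted p = 0.157).

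**Figure D3:**
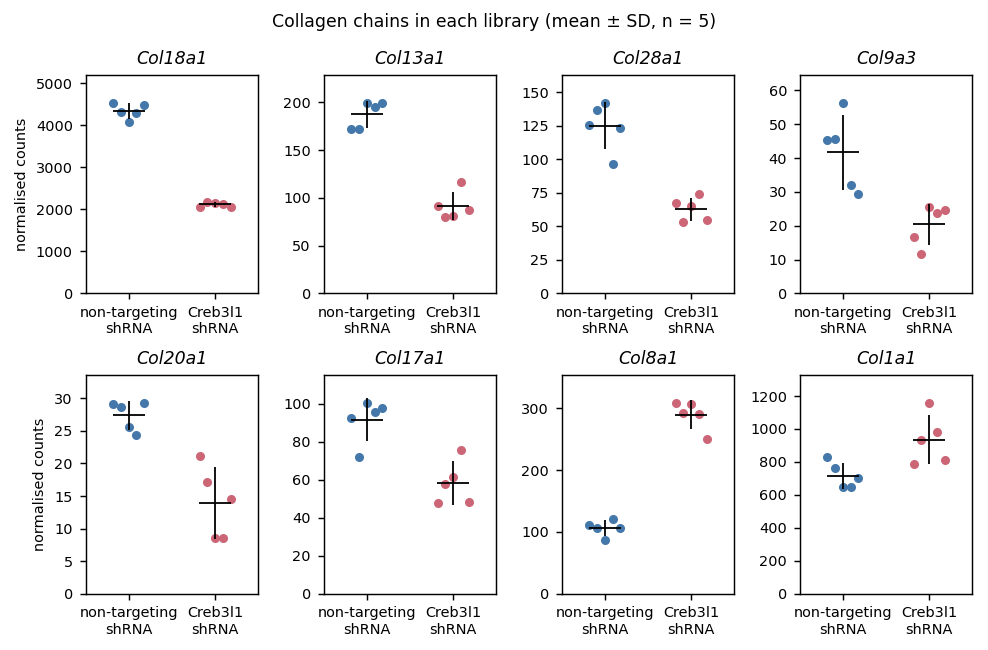
Normalised counts of 8 chains in each library (points), with the mean and SD of 5 libraries per line (black lines), each panel on its own axis from 0. The lines separate fully in 6 panels, with *Col8a1* alone among them higher in the knockdown line (289 ± 23.4 against 106.2 ± 12.4), and overlap for *Col17a1* and *Col1a1*.

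Type IV collagen is the network of basement membranes, and its chains are encoded as pairs of neighbouring genes read in opposite directions. The pair *Col4a4* and *Col4a3* parted. *Col4a4* held 79.5, 66.8, 55.0, 64.8 and 59.4 normalised counts in the controls and 50.5, 50.3, 39.4, 46.4 and 36.4 in the knockdown libraries, without overlap and with a log2 fold change of -0.55 ± 0.15 (SE, adjusted p = 0.00224). *Col4a3* held 9.05, 13.8, 11.0, 16.9 and 15.1 against 16.5, 20.3, 16.0, 13.3 and 12.7, with overlap and a log2 fold change of 0.23 ± 0.28 (SE, adjusted p = 0.508). The call for *Col4a4* was lost without control replicate 1 (adjusted p = 0.0151), without knockdown replicate 5 (0.0121) and without control replicate 1 and knockdown replicates 3 and 4 together (0.0608).

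The ratio of *Col4a4* to *Col4a3* per kilobase was 8.24, 4.55, 4.70, 3.60 and 3.70 in the controls and 2.87, 2.32, 2.32, 3.29 and 2.68 in the knockdown libraries. Every knockdown library had a lower ratio than every control. The mean log2 ratio was lower by 0.803 in the knockdown line (two-sided exact permutation p = 0.00794, the smallest that 5 against 5 libraries can give, and 0.0318 after adjustment over the 4 chain pairs examined). These pairs were chosen after the values of their genes had been seen, and the adjustment does not cover that choice. *Col4a3* rests on few counts, which limits each ratio. It also shares 563 bases (5.65%) of its exons with *C430014B12Rik* on the opposite strand, which had 0 to 9 counts. Between the annotated starts of *Col4a4* and *Col4a3* lie only 71 bases, at chr1:82586850-82586920. They are written in the direction of *Col4a4*, on the minus strand.
Col4a4 to Col4a3: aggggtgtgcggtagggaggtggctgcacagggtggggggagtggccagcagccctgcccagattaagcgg

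*Col4a1*, the main chain of basement membranes in most tissues, held 32.2, 44.5, 44.0, 32.9 and 30.2 normalised counts in the controls and 42.3, 28.9, 41.5, 49.3 and 40.9 in the knockdown libraries, with overlap (log2 fold change 0.16 ± 0.18, SE, adjusted p = 0.485). Its partner *Col4a2* had 5 to 13 counts in the controls and 1 to 11 in the knockdown libraries and was not tested by edgeR. The ratio of *Col4a1* to *Col4a2* was higher by 1.51 on the log2 scale in the knockdown line (exact permutation p = 0.0238, 0.0476 after adjustment), on counts low enough that single reads move it. *Col4a5* and *Col4a6* had at most 8 counts.

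Neither type I chain was called. *Col1a1* held 829.8, 761, 647, 645 and 702 normalised counts in the controls and 786, 934, 1155, 984 and 814 in the knockdown libraries. Knockdown replicates 3 and 4 were highest, and the lines overlapped because control replicate 1 lay above knockdown replicates 1 and 5. The log2 fold change was 0.38 ± 0.12 (SE, adjusted p = 0.0322), short of the threshold. It passed the threshold, in the same direction, with DESeq2 (adjusted p = 0.00633), in a quasi-likelihood fit without robust moderation (9.72e-04) and without control replicate 1 and knockdown replicates 3 and 4 (log2 fold change 0.30, 5.45e-04).

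*Col1a2*, the second chain of the type I helix, held 313, 207, 188, 166 and 181 normalised counts in the controls and 147, 220.5, 513, 344 and 184 in the knockdown libraries. Control replicate 1 and knockdown replicates 3 and 4 were the 3 highest, and the spread within the knockdown line was larger than the distance between the lines. The log2 fold change was 0.41 ± 0.38 (SE, adjusted p = 0.415), and it became -0.012 without those 3 libraries. The ratio of *Col1a1* to *Col1a2* per kilobase ranged from 4.27 in knockdown replicate 3 to 10.1 in knockdown replicate 1, with a log2 difference between the lines of 0.0714 (exact permutation p = 0.786, 0.952 after adjustment).

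The type III and type V chains, which share fibrils with type I, and the type VI chains, which form beaded filaments around cells, mostly repeated the order of libraries seen in *Col1a2*. *Col3a1* held 74.4, 38.1, 42.8, 30.05 and 55.6 normalised counts in the controls and 43.2, 54.6, 95.7, 71.1 and 38.2 in the knockdown libraries. *Col5a2* held 32.2, 13.8, 15.9, 16.0 and 21.7 against 13.8, 22.5, 41.5, 34.1 and 22.7. *Col5a1* held 10.1, 13.8, 17.1, 14.1 and 17.9 against 3.68, 7.49, 24.5, 9.48 and 17.3. In all of these the lines overlapped and knockdown replicate 3 was the highest library, while control replicate 1 was the highest control in *Col3a1* and *Col5a2* and the lowest in *Col5a1*. They had log2 fold changes of 0.31, 0.41 and -0.24 and adjusted p of 0.451, 0.213 and 0.597.

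*Col6a1* held 47.3, 31.8, 22.01, 18.8 and 25.5 normalised counts in the controls and 14.7, 21.4, 61.7, 31.3 and 24.5 in the knockdown libraries. *Col6a2* held 49.3, 22.3, 22.01, 24.4 and 26.4 against 17.5, 25.7, 41.5, 37.0 and 19.1. *Col6a3* held 27.2, 10.6, 8.56, 16.0 and 22.6 against 12.9, 11.8, 27.7, 23.7 and 8.18. Again control replicate 1 was highest of its line and knockdown replicate 3 highest of the other. None was called (adjusted p = 0.917, 0.87 and 0.902), with log2 fold changes of 0.06, -0.06 and -0.06, and the ratio of *Col6a1* to *Col6a2* differed by 0.0325 on the log2 scale (exact permutation p = 0.952). *Col2a1*, the fibril chain of cartilage, was at -0.13 (adjusted p = 0.402). *Col11a2*, a minor chain of cartilage fibrils, held 129.8, 143, 144, 108.9 and 157 normalised counts in the controls and 76.3, 81.3, 100.0, 115 and 110.0 in the knockdown libraries. It was the 1 fibril chain called, at -0.50 ± 0.12 (SE, adjusted p = 4.18e-04), although control replicate 4 fell within the range of the knockdown libraries.

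Counted over the members, control replicate 1 was the highest control and knockdown replicate 3 the highest knockdown library in 10 of 35 tested members (28.6%, against 3.50% of all tested genes). These were *Col1a1*, *Col1a2*, *Col3a1*, *Col5a2*, *Col6a1*, *Col6a2*, *Col6a3*, *Lox*, *P3h1* and *Serpinh1*. In 7 of them (20%, against 0.349% of all tested genes) these libraries and knockdown replicate 4 were the 3 highest of all. Of 52 tested genes outside the members that work with collagen, the same 3 libraries led in 3 (5.77%, against 0.349% of all tested genes). These were *Fn1*, *Sparc* and *Bgn*, which encode fibronectin, osteonectin and biglycan. *Fn1* held 84.5, 53.0, 45.2, 44.1 and 33.9 normalised counts in the controls and 34.0, 53.5, 134, 82.4 and 60.0 in the knockdown libraries. The pattern was noticed in the values and is given as a description.

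Fibroblasts are the cells best known for such a set of genes. Of the 7 fibroblast markers examined that are not collagens none passed the filter, *Lum* was at 0, and *Dcn*, *Thy1* and *Fap* had at most 2 counts in every library. Their summed level was 5.63 to 22.1 normalised counts in the controls, highest in replicate 1, and 17.3 to 24.5 in the knockdown line, highest in replicate 3. Most of it came from *Pdgfra* (3 to 12 counts), *Pdgfrb* (1 to 8) and *Postn* (0 to 7), so a few reads set the order. In knockdown replicate 3 *Pdgfra* (12) and *Postn* (7) were highest of the line and *Pdgfrb* (4) was lowest. The part of other cells in these values was not tested. With every knockdown library below every control, *Col18a1* and *P4ha1* could not have knockdown replicates 3 and 4 among their 3 highest libraries. In both genes control replicate 1 was the highest control (4524 and 8144 normalised counts). Knockdown replicate 3 was not the highest of its line in either (2148 and 5851). *Col18a1* was lower in knockdown replicates 3 and 4 (2148 and 2135) as in the others.

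**Figure D4:**
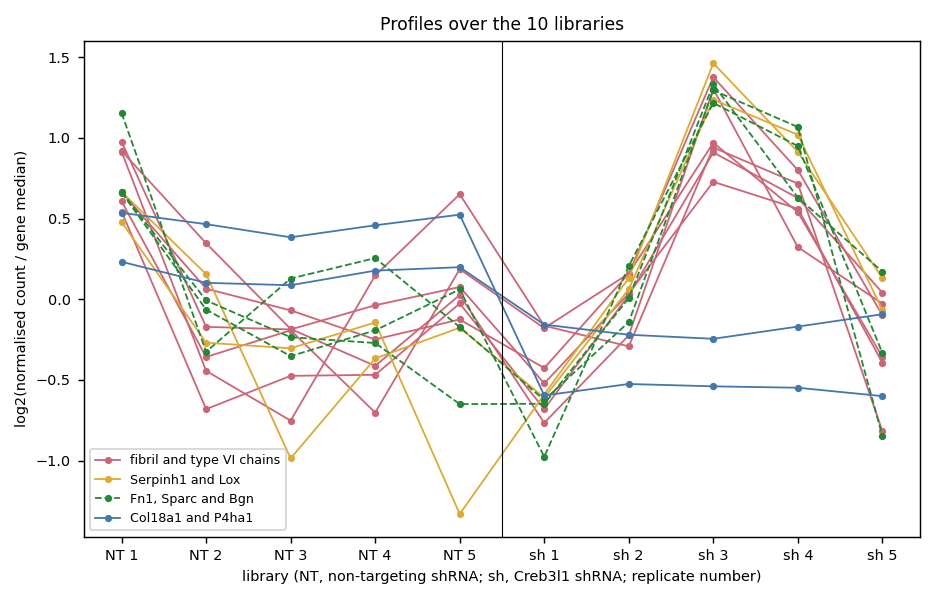
Log2 of the normalised count over the gene's median in each of the 10 libraries for 6 fibril and type VI chains, *Serpinh1* and *Lox*, the matrix genes *Fn1*, *Sparc* and *Bgn*, and *Col18a1* with *P4ha1*; the vertical line parts the control from the knockdown line. Control replicate 1 and knockdown replicates 3 and 4 are high in the first 3 sets, while *Col18a1* and *P4ha1* step down between the lines and stay level within them. The first 3 sets were chosen with this order of libraries already seen. The tested fibril chains *Col1a1*, *Col2a1*, *Col5a1* and *Col11a2* are not drawn, and in *Col5a1* control replicate 1 was the lowest control.

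The enzymes act on the chains in the endoplasmic reticulum before the helix closes. *P4ha1* encodes the catalytic subunit of prolyl 4-hydroxylase, which gives the helix its heat stability. It held 8144, 7441, 7365, 7841 and 7957 normalised counts in the controls and 6219, 5954, 5851, 6166 and 6502 in the knockdown libraries. The lines did not overlap, and the log2 fold change was -0.34 ± 0.030 (SE, adjusted p = 1.01e-11), or 1.26-fold lower. It made up nearly all of its family, 99.95% of the level per kilobase of the 3 alpha subunits in the controls and 99.93% in the knockdown line. *P4ha2* had 0 to 11 counts and *P4ha3* 0 to 3.

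The lysyl hydroxylases prepare sites for sugars and cross-links. *Plod3*, which also attaches the sugars, gave 59.9% of the family's level per kilobase in the controls, *Plod1* 26.3% and *Plod2*, which acts on the helix ends, 13.8%. *Plod1* held 1006, 1025, 995, 976 and 1019 normalised counts in the controls and 849, 873, 987, 909.6 and 851 in the knockdown libraries, a log2 fold change of -0.17 ± 0.042 (SE, adjusted p = 7.39e-04). Knockdown replicate 3 reached into the range of the controls. *Plod3* held 1576, 1544, 1516, 1498 and 1497 against 1313, 1486, 1390.3, 1392 and 1359.5, a log2 fold change of -0.14 ± 0.035 (SE, adjusted p = 9.49e-04). The lines were next to each other without overlap, and the call was lost without control replicate 1 and knockdown replicates 3 and 4 (adjusted p = 0.0222). *Plod3* shares 529 bases (11.7%) of its exons with *Znhit1* on the opposite strand, which had 1448 to 1923 counts. The libraries keep strand, but whether the counting used it is not given in the sources used here. *Plod2* held 398, 421, 416, 457 and 397 against 409.8, 344, 399, 353 and 413 and was not called (-0.12 ± 0.064, SE, adjusted p = 0.11).

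*P3h1* and *P3h3* encode prolyl 3-hydroxylases, the first of which works in a complex with *Crtap* and cyclophilin B. *P3h3* held 474, 465, 477, 538 and 491 normalised counts in the controls and 364, 399, 418, 438 and 391 in the knockdown libraries, without overlap and with a log2 fold change of -0.29 ± 0.059 (SE, adjusted p = 9.27e-05). *P3h1* held 367, 359, 351, 361 and 351 against 333, 307, 358, 299 and 323. Knockdown replicate 3 again lay among the controls, and the log2 fold change of -0.14 ± 0.065 (SE, adjusted p = 0.062) was not called. *Crtap* had 0 to 2 counts in every library. *Serpinh1*, the chaperone HSP47 that binds the folded helix, held 42.2, 29.7, 13.4, 20.7 and 23.6 normalised counts in the controls and 17.5, 27.8, 62.8, 54.0 and 25.4 in the knockdown libraries. It followed the order of *Col1a2*, with wide overlap, and was not called (0.50 ± 0.40, SE, adjusted p = 0.332).

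Outside the cell, *Bmp1* encodes the proteinase that removes the C-terminal propeptides and *Pcolce* a protein that enhances it. The pair moved in opposite directions. *Pcolce* held 1349, 1279, 1353, 1346 and 1299 normalised counts in the controls and 955, 1026, 1055, 1102 and 1048 in the knockdown libraries, with no overlap and a log2 fold change of -0.35 ± 0.038 (SE, adjusted p = 2.15e-10). *Bmp1* held 952, 1013, 965, 1034 and 1115 against 1125, 1163, 1099.9, 1125 and 1096, a log2 fold change of 0.14 ± 0.040 (SE, adjusted p = 0.0034). Control replicate 5 lay within the knockdown range. The call for *Bmp1* was lost without control replicate 1, without control replicate 3, without the 3 libraries high in *Col1a2*, and after correction for GC content and length (adjusted p = 0.0157).

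The lysyl oxidases were low in both lines. *Lox* held 23.1, 13.8, 13.4, 15.0 and 6.60 normalised counts in the controls and 11.0, 18.2, 45.7, 31.3 and 18.2 in the knockdown libraries, with overlap and a log2 fold change of 0.77 ± 0.36 (SE, adjusted p = 0.0849). The value ranged from 0.45 to 1.01 with each library left out, passed the threshold without knockdown replicate 1 (0.97, adjusted p = 0.00956) and was 0.38 without control replicate 1 and knockdown replicates 3 and 4. *Loxl3* held 13.1, 14.8, 13.4, 8.45 and 9.43 against 24.8, 17.1, 16.0, 15.2 and 21.8. Its lines did not overlap, but at these counts the log2 fold change of 0.70 ± 0.27 (SE, adjusted p = 0.0301) was not called. It shares 535 bases (11.6%) of its exons with *Htra2* on the opposite strand, which had 781 to 1077 counts. *Loxl1* had 3 to 15 counts and *Loxl2* at most 2.

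**Figure D5:**
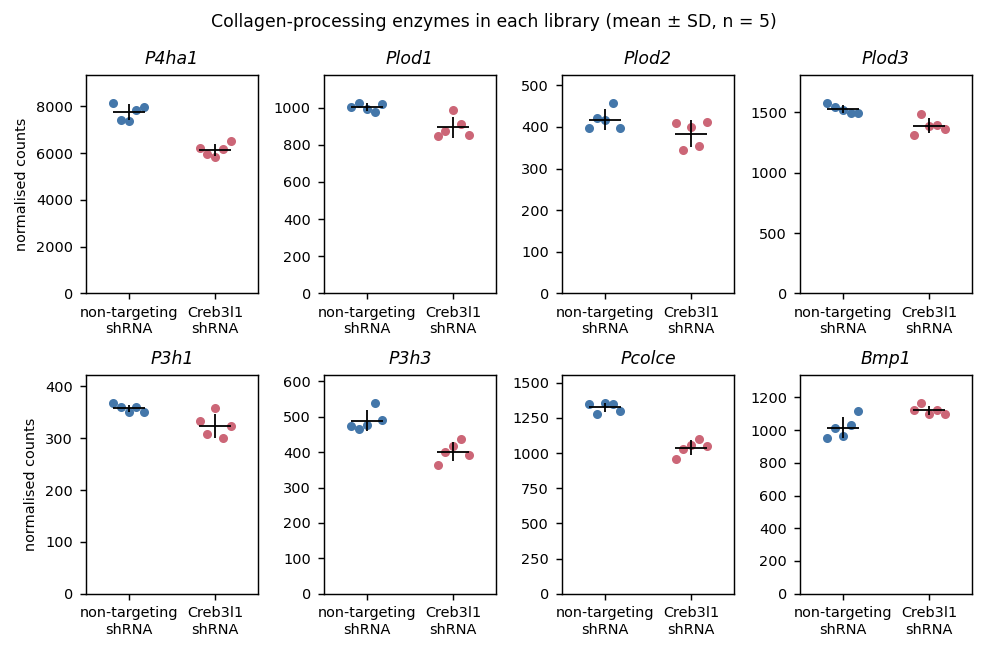
Normalised counts of 8 processing enzymes in each library (points), with the mean and SD of 5 libraries per line (black lines), each panel on its own axis from 0. *P4ha1*, *P3h3*, *Pcolce* and *Plod3* separate without overlap, all lower in the knockdown line, and the step is small in every panel, at most 0.35 on the log2 scale.

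A further 88 genes that work with collagen were set beside the members, in 6 lists by role. Of these 52 were tested and 20 were called (38.5%, background 40.7%), with a median log2 fold change of 0.018. The calls were 9 higher (17.3%, background 20.6%) and 11 lower (21.2%, background 20.1%). Among the 13 partners in modification, all tested, 8 were called (61.5%, background 40.7%), 3 higher (23.1%) and 5 lower (38.5%). *Fkbp9*, a prolyl isomerase of the endoplasmic reticulum, fell from 77.4 ± 8.67 to 37.6 ± 5.09 normalised counts (SD, n = 5, log2 fold change -1.06, edgeR adjusted p = 9.14e-08). *Ppib*, cyclophilin B of the prolyl 3-hydroxylase complex, rose from 4649 ± 154 to 5899 ± 125 (0.34, edgeR adjusted p = 3.92e-14). *Colgalt2*, a collagen galactosyltransferase, was lower by 0.89 on the log2 scale at 29.0 and 15.7 normalised counts, a call that was lost without control replicate 1 (adjusted p = 0.0233). *Tmem38b*, a cation channel of the endoplasmic reticulum, rose by 0.25, a call that was lost in 3 of the fits with a library left out.

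Of the 16 genes of procollagen export, all tested, 4 were called (25.0%, background 40.7%), 2 in each direction. *Cul3*, the ubiquitin ligase scaffold that enlarges transport vesicles for procollagen, rose from 2486 ± 55.2 to 3069 ± 184 normalised counts (SD, n = 5, log2 fold change 0.30, edgeR adjusted p = 3.36e-10). Of 11 propeptide and telopeptide processing genes 3 were tested and 1 was called (33.3%, background 40.7%). This was *Pcsk6*, a proprotein convertase, at 433 ± 8.35 and 719 ± 38.8 (0.73, edgeR adjusted p = 3.76e-16). Of 11 collagen receptors 6 were tested and 1 was called (16.7%, background 40.7%). This was *Mrc2*, which takes up collagen for breakdown, at 43.8 ± 8.16 and 24.7 ± 4.13 (-0.84, edgeR adjusted p = 3.31e-04). It lost the call without the 3 libraries high in *Col1a2* (adjusted p = 0.0121).

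Of 13 breakdown genes 7 were tested and 4 called (57.1%, background 40.7%), 2 in each direction. *Timp2*, an inhibitor of matrix metalloproteinases, rose from 810.0 ± 38.4 to 1964 ± 51.4 normalised counts (SD, n = 5, log2 fold change 1.28, edgeR adjusted p = 1.40e-28), and its relative *Timp3* from 551 ± 29.3 to 769 ± 39.4 (0.48, edgeR adjusted p = 1.48e-11). The membrane proteinase *Mmp15* fell by 0.27 on the log2 scale (edgeR adjusted p = 0.00191), a call lost without control replicate 2 (0.0118). Of 24 partners in fibrils and networks 7 were tested and 2 called (28.6%, background 40.7%), 1 in each direction. *Hspg2*, the basement membrane proteoglycan perlecan, rose by 0.45 (edgeR adjusted p = 0.00125), a call lost after correction for GC content and length (0.0114). *Tgm2*, a transglutaminase that cross-links matrix proteins, fell from 1576 ± 45.2 to 892 ± 32.0 (-0.82, edgeR adjusted p = 4.20e-22). Without control replicate 1 and knockdown replicates 3 and 4, 12 of these 20 calls held, and *Mmp15*, *Hspg2*, *Colgalt2*, *Tmem38b* and *Mrc2* were among those lost.

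Promoters were searched for GACGTG, the core G-box word that the study examined in *Pcsk1*, and for the palindromes CACGTG and TGACGTCA. CACGTG is known as the E-box and also lies within the G-box that the study names in the vasopressin promoter. TGACGTCA is known as the cyclic AMP response element. Each word was sought on both strands in the 250 bases before the RefSeq start (GRCm38.p6), and none of the words contains another. RefSeq promoters were matched to 46 of the 62 members, 24 of them tested, with 50 promoters in all. GACGTG was found in 5 of these 50 promoters and in 5.20% of all 32851 promoters. All 5 were among the 27 promoters of tested members. CACGTG, in 6.02% of all, and TGACGTCA, in 1.55%, were in none of the members' promoters. The 5 stretches with the word are shown because they set it beside the measured changes, and the capitals mark GACGTG, or CACGTC where the word is on the other strand.
Col5a1, chr2:27886189-27886234, plus strand: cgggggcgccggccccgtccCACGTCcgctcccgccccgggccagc
P3h1, chr4:119233777-119233828, plus strand: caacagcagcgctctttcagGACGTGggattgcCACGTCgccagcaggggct
Col1a2, chr6:4505467-4505556, plus strand: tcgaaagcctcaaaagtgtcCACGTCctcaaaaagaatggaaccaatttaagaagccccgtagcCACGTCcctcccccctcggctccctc
Serpinh1, chr7:99353385-99353430, minus strand: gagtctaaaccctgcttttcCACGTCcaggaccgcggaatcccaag
Col11a2, chr17:34038894-34038939, plus strand: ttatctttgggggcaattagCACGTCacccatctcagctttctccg

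The word begins at position -216 from the start in *Col5a1*, at -32 and -19 from the later of the starts listed for *P3h1*, at -131 and -87 in *Col1a2*, at -171 in *Serpinh1* and at -224 in *Col11a2*. Of these 5 genes only *Col11a2* was called, at -0.50 on the log2 scale, against a background of 40.7% of all tested genes. The other 4 lay between -0.24 and 0.50. None of the searched words was in the promoters of *Col18a1*, *Col8a1* and *Col13a1*, which changed most. A match says only that these letters are in the window.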

How the data were processed

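The samples were 10 AtT20 RNA libraries, 5 per line, grouped by their labels. The authors prepared stranded poly(A) libraries, mapped the paired reads to GRCm38 (STAR), summed them over Ensembl genes (featureCounts) and deposited these raw counts, whole numbers with no normalisation.

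From these counts, genes were filtered with filterByExpr, scaled by TMM and tested between lines by edgeR's quasi-likelihood test (edgeR 4.0.16, limma 3.58.1, R 4.3.3, robust moderation, no covariate), with Benjamini-Hochberg adjustment over 14336 genes and a threshold of 0.01. DESeq2, the tool the authors used for their own calls, was an alternative here (version 1.42.0). Standard errors came from the fold change and the F statistic. Exon lengths and symbols (53706 of 53801 identifiers) came from a GENCODE annotation of GRCm38, an earlier release than that of the authors. Chain ratios used a pseudocount of 0.5 and exact permutation. Methods were tested on simulated data. At 17420698 to 22205107 counts per library, members with few reads have the largest errors. Intervals from counting cover counting error only. No 2 libraries agreed within sampling noise.

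The members and gene lists were chosen with earlier results of these data known. Library values are given for members called with a change of at least 1.5-fold, for type I, III, IV, V and VI chains, for the main enzymes and for *Creb3l1*. Values by library for *Col22a1*, *Col11a2*, *P3h3*, *Loxl3* and *Fn1* were added after being seen. Companion genes were named if called, up to the 12 largest changes. Alternatives were other scaling, filters, thresholds, a replicate block, GC and length offsets and each library left out. The fit without robust moderation and that without control replicate 1 and knockdown replicates 3 and 4 were added after seeing the data. The quantitative PCR, western blot, reporter and animal data of the study were not analysed here.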

Additional observations from a re-analysis of the deposited data

Results flagged for a closer look

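In 72 groups of 5 libraries, formed by the tested members and *Creb3l1* in each line, 3 held a library farther from its neighbours than Dixon's 95% limit allows, and chance gives about 1 in 20, or 3.6. *Col1a2* stood at 312.8 normalised counts in control replicate 1, against 166.2 to 206.6 in the other controls. *Col6a2* stood at 49.29 in the same library, against 22.01 to 26.4. *Col17a1* stood at 72.06 in control replicate 2, against 92.54 to 100.3. The cause was not tested in any of them.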

How the results depend on the processing

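Over 19 other fits, 12 of the 16 called members kept their call and direction in every fit, and *Bmp1*, *Col20a1*, *Col4a4* and *Plod3* lost it in at least 1. Members called numbered 14 to 17 with each library left out in turn, 17 with DESeq2, 16 with the replicate block, 15 with GC and length offsets and 18 at an adjusted p under 0.05. The block raised the calls over all genes from 5837 to 6013. Same-numbered libraries did not deviate together (correlations of -0.062 to 0.038), so the numbers do not pair them. Requiring at least 1.5-fold left 7 members (7 chains and 0 enzymes), 6 companion genes and 1108 of all genes, fewer by construction. Without control replicate 1 and knockdown replicates 3 and 4, chosen after seeing the data, 12 companion genes remained called of 20, with fewer libraries, and 4685 of all genes. There *Col1a2* turned to -0.012 and *Col6a1* to -0.27 on the log2 scale. With each library left out, *Col6a1* ranged from -0.34 to 0.31, *Col6a2* from -0.23 to 0.22, *Col6a3* from -0.29 to 0.17 and *Col5a1* from -0.60 to 0.0098. The cause was not tested, and none of these 5 chains was called in any fit. Depth limits members under 50 normalised counts, where the SE reached 0.40.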
